A study of Mus musculus with 8 samples.

Results

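A group of 9 genes that mark naive and resting T cells was followed through RNA sequencing of mouse regulatory T (Treg) cells: Tcf7, Lef1, Bach2, Satb1, Klf2, S1pr1, Ccr7, Il7r and Igfbp4. They were named by symbol and found through their Ensembl identifiers among the 53465 genes of the deposited tables. The study asked what the chromatin remodeler BRG1, encoded by Smarca4, does in Treg cells, and used a Brg1 allele that can be switched back on. There were 8 libraries, 1 per condition, so that no difference has a replicate check. Levels of a gene were compared only within the 6 libraries of total Treg cells and within the 2 of activated Treg (aTreg) cells.

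All mice were labelled C57BL/6 and aged 3–4 weeks, and all carried R26CAG-FlpoER, a tamoxifen (TAM)-activated Flp recombinase expressed in every tissue. By the methods, the ΔR mice were made on a mixed background and backcrossed to C57BL/6 for fewer generations than the other strains. Background may thus differ between mice with and without the ΔR allele, which was not tested. Treg cells of spleen and lymph nodes were sorted as CD4+CD25+YFP+ by the methods, where YFP-Cre comes from the Foxp3 locus and is therefore confined to Foxp3-expressing cells. The WT library was from BrgF/+ Foxp3YFP-Cre/+ mice, whose Treg cells keep 1 Brg1 copy when Cre acts. In mosaic females, X inactivation leaves Cre active in some Treg cells. The Brg1-sufficient library (BrgF/ΔR, labelled Foxp3+/+) and the Brg1-deleted library (BrgF/ΔR Foxp3YFP-Cre) came from such females. The paper describes the first as YFP− and the second as YFP+ cells, so the first departs from the gate in the methods. The Foxp3 reporter thus did not select the Brg1-sufficient cells. The rKO1 mice (labelled Foxp3YFP-Cre/YFP-Cre, with BrgF/deltaR for the untreated and GFP+ cells and BrgF/+ for the GFP− cells), in which all Treg cells lose BRG1 and inflammation develops, gave 3 libraries of total Treg cells: untreated, and GFP+ Brg1-deleted and GFP− Brg1-reexpressed cells on Day 7 after TAM. The ΔR allele carries a gene trap with GFP that Flp removes, so GFP is lost where BRG1 returns. The aTreg libraries came from such TAM-treated rKO1 animals at the same time point. The methods give the homozygous Cre genotype for female rKO mice only, whereas the untreated rKO1 library had 10 reads of Xist, the RNA of the inactive X chromosome, against 762 to 3990 in the other 5 total Treg libraries, which goes against its labelled genotype. How many animals each library pooled was not given in the sources used here.

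Naive and resting T cells recirculate through lymph nodes and spleen under a transcription program that activation shuts down. TCF-1 and LEF-1 (from Tcf7 and Lef1), BACH2 and SATB1 hold chromatin and gene expression in the resting state, and BACH2 opposes the effector regulator BLIMP-1. KLF2 induces S1pr1, whose product lets T cells leave lymphoid tissue, CCR7 guides them into lymph nodes, and the IL-7 receptor α chain from Il7r carries the survival signal of IL-7. Treg cells divide along the same line into resting cells rich in transcripts such as Bach2 and Ccr7 and activated cells poor in them.

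The FPKM values were turned back into reads, which reached 16250325 to 23992174 per library, and levels are given as CPM scaled by the trimmed mean of M-values (TMM), so that 1 read was worth 0.0413 to 0.0604 CPM. A gene was called where it differed at least 2-fold and reached 5 CPM in either library. Exact 95% intervals were computed from the read numbers, and they hold for counting error alone. The 10 Treg identity genes all reached 5 CPM in all 8 libraries, but Foxp3 itself ranged from 84.1 CPM (WT) to 617 CPM (mosaic Brg1-sufficient) in total Treg cells. In the same 6 libraries the summed level was 33.2 to 132 CPM over 8 non-Treg T cell genes, 15.1 to 75.3 over 8 B cell genes, 163 to 1385 over 6 plasma cell genes, 49.1 to 417 over 8 myeloid genes and 154 to 632 over 6 erythroid genes. Between the aTreg libraries it was 82.1 against 57.9 CPM (non-Treg T cell), 94.2 against 71.3 (B cell), 1158 against 1560 (plasma cell), 468 against 719 (myeloid) and 1174 against 22872 (erythroid), the library labelled Brg1-deleted first. The aTreg library labelled Brg1-reexpressed thus stood apart, with 2.25% of its reads on the erythroid genes against 0.119% in the other.

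Smarca4 was 88.2 CPM in WT, 77.3 in mosaic Brg1-sufficient, 47.3 in mosaic Brg1-deleted, 44.1 in untreated rKO1, 36.2 in GFP+ and 58.2 in GFP− cells, so that the 3 deleted libraries were the lowest. As reads of every exon are summed, and the trapped allele still transcribes its first exons, this is only a partial check. In aTreg cells it was 71.2 CPM in the library labelled Brg1-deleted and 59.4 CPM in the library labelled Brg1-reexpressed (log2 −0.26, interval −0.38 to −0.14), which goes against the labels. The values of the first of these libraries are also headed as WT and its genotype is given as F/F, so both aTreg libraries are called by their labels and directions drawn from them rest on those labels.

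In total Treg cells, 8 of the 9 genes were highest in the Brg1-deleted cells of mosaic females, and 6 were lowest in the Brg1-reexpressed cells of rKO1 mice. Il7r ran the other way, with its lowest level in the mosaic Brg1-deleted cells. The spread between libraries differed greatly among the genes, from 65.0-fold between the highest and the lowest library for Igfbp4, over 21.3-fold for Bach2, 11.8-fold for Tcf7, 9.69-fold for Ccr7, 9.36-fold for Il7r and 5.18-fold for S1pr1, to 3.13-fold for Lef1, 2.73-fold for Klf2 and 1.39-fold for Satb1.

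**Figure D1:**
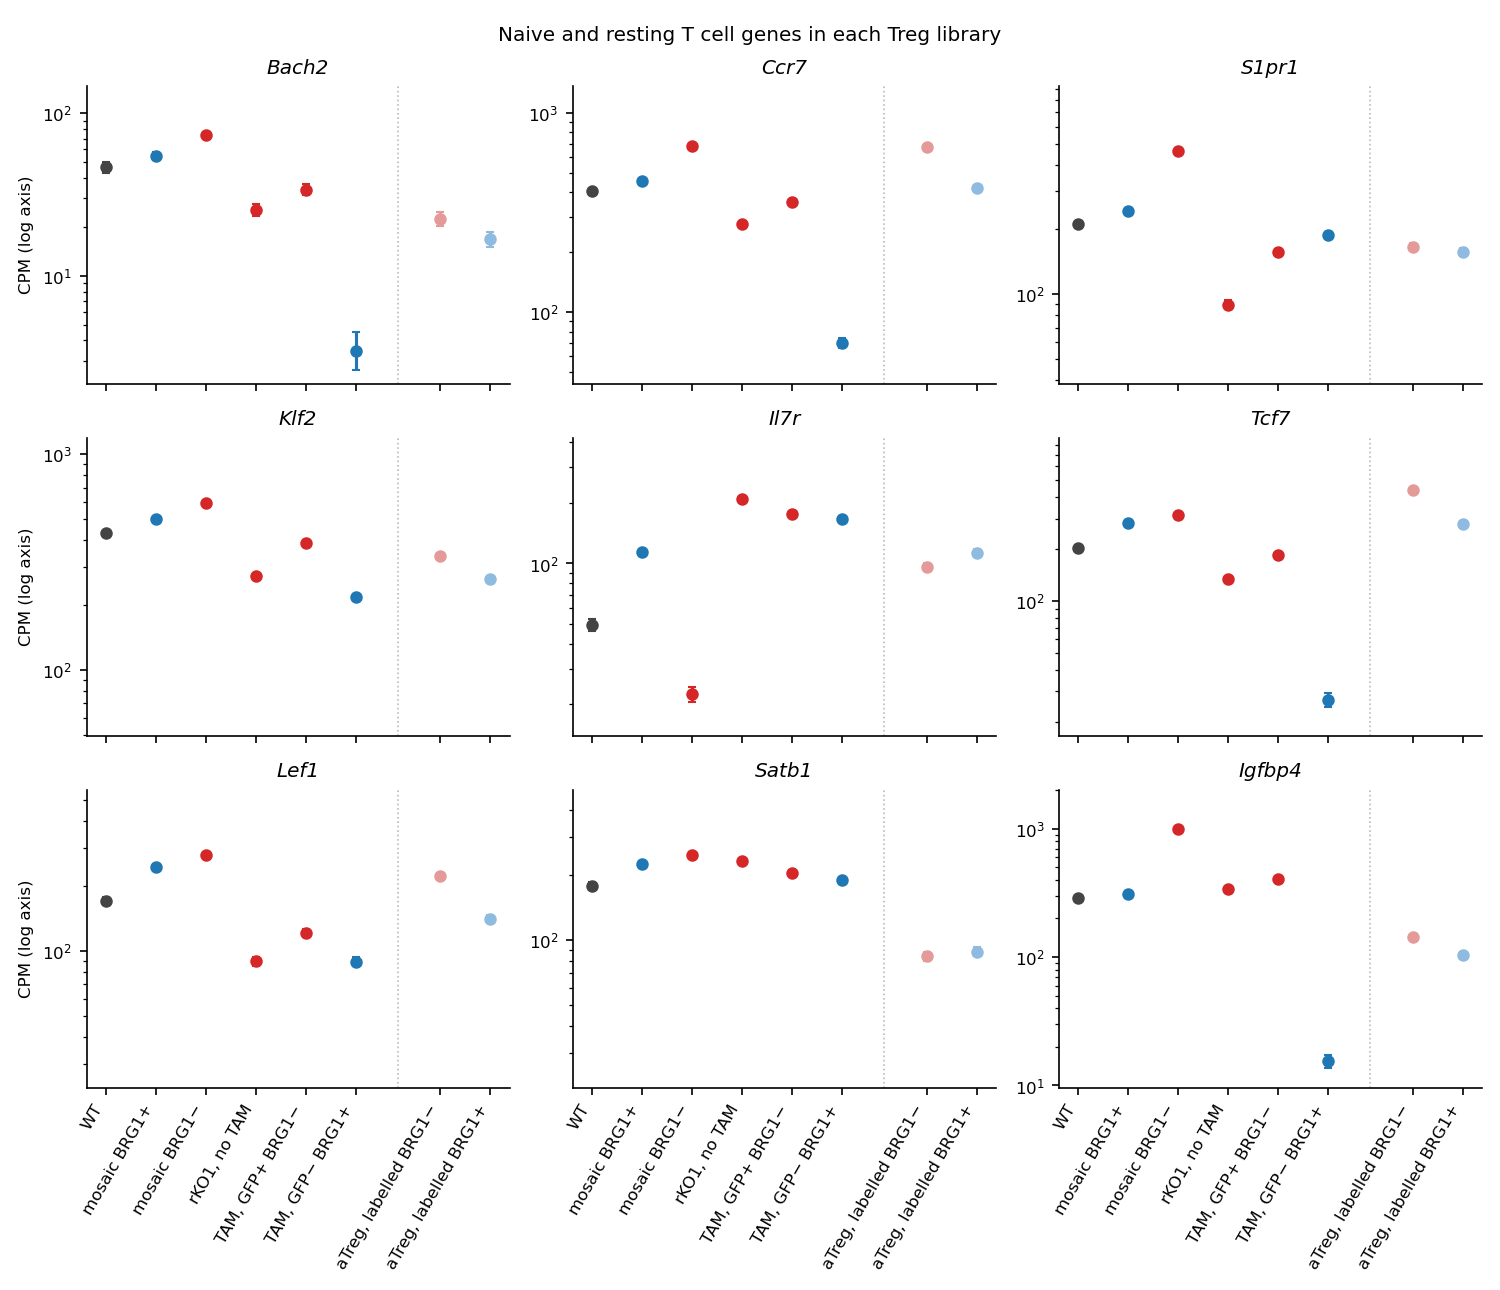
Level of each of the 9 genes in every library, in CPM on a log axis, with 95% counting intervals. Red marks Brg1-deleted, blue Brg1-sufficient or Brg1-reexpressed and grey WT cells. The dotted line separates the aTreg experiment, shown in pale colors by its labels. Bach2, Ccr7, Tcf7 and Igfbp4 drop sharply in the GFP− library of total Treg cells, at 3.47, 70.2, 26.7 and 15.4 CPM.

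Tcf7 (ENSMUSG00000000782, chromosome 11, 52252371–52283014, GRCm38) encodes TCF-1, the transcription factor most tied to the resting and stem-like state of T cells. It was 202 CPM in WT, 283 in mosaic Brg1-sufficient and 316 in mosaic Brg1-deleted cells, and 135 in untreated rKO1, 184 in GFP+ and 26.7 in GFP− cells. The GFP− cells thus had the lowest level of the 6 libraries, 6.89-fold below the GFP+ cells of the same experiment (log2 −2.78, interval −2.93 to −2.64). In the mosaic females the Brg1-sufficient cells were lower by log2 −0.16, which is less than the log2 0.49 between the WT and mosaic Brg1-sufficient libraries. In aTreg cells Tcf7 was 439 CPM in the library labelled Brg1-deleted and 280 in the other (log2 −0.65, interval −0.70 to −0.60).

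Lef1 (ENSMUSG00000027985, chromosome 3, 131110471–131224356), the partner of TCF-1 at Wnt and T cell target genes, was less divided. It was 171 CPM in WT, 246 in mosaic Brg1-sufficient, 279 in mosaic Brg1-deleted, 89.4 in untreated rKO1, 121 in GFP+ and 89.1 in GFP− cells. The untreated rKO1 and GFP− levels were the same within counting error, and the difference after TAM (log2 −0.44, interval −0.53 to −0.34) was smaller than the 0.53 between the WT and mosaic Brg1-sufficient libraries. The ratio of Tcf7 to Lef1 in deposited FPKM, a level per length, was 3.79 to 5.09 in the other 5 total Treg libraries, 1.001 in GFP− cells, and 6.61 and 6.64 in the aTreg libraries, so that the loss in GFP− cells was uneven between the partners. Of the Lef1 exon bases, 13.7% overlap another gene, so part of its reads could belong elsewhere.

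Genes around each of the 9 were counted as lists, against a background of all tested genes of which 4.02% were called higher and 2.06% lower in the mosaic females (median log2 0.03), 7.06% and 5.64% after TAM (0.06) and 4.40% and 2.03% in aTreg cells (−0.06). Among 18 TCF/LEF partners (β-catenin, the TLE corepressors, E proteins and others), 16 were tested after TAM in total Treg cells and 0 were called, with a median log2 of −0.16 against 0.06 over all tested genes. Tle1, Tle3 and Tle4 were at log2 0.24, −0.53 and −0.05. In the mosaic females 1 of 17 was called higher (Id2, an inhibitor of E proteins, log2 2.17) and 1 lower (Tle2, −2.63), while in aTreg cells Id2 was called higher (1.01) and Tle1 and Tle3 lower (−1.17 and −1.11) in the library labelled Brg1-reexpressed.

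Bach2 (ENSMUSG00000040270, chromosome 4, 32238804–32586108), a repressor that holds back effector genes and favours Treg cell formation, was the lowest of the 9 per length in 7 of the 8 libraries. It was 46.5 CPM in WT, 54.7 in mosaic Brg1-sufficient, 73.8 in mosaic Brg1-deleted, 25.5 in untreated rKO1, 33.9 in GFP+ and 3.47 in GFP− cells. The last is 58 reads against 620 in GFP+ cells, a 9.75-fold lower level (interval 7.47 to 13.0), and 37 of 10272 tested genes were lower by at least as much. Across the 6 libraries the log2 level of Bach2 followed those of Ccr7 and Tcf7, with r = 0.996 and 0.997 (n = 6), and with 0.975 and 0.973 over the other 5 libraries when the GFP− library was left out.

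Of 16 partners and antagonists of BACH2, Prdm1, which encodes BLIMP-1, was called higher in the Brg1-sufficient cells of mosaic females (22.3 against 3.96 CPM, log2 2.49) and in GFP− cells after TAM (64.8 against 18.6 CPM), and was at log2 0.66 in aTreg cells. Maf, a regulator of IL-10 and effector Treg genes, had log2 differences of 2.57, 1.28 and 0.97 in the same order. The list held 4 genes called higher and 0 lower of 14 tested in the mosaic females, 2 higher and 3 lower (Batf3 and Fosl2 at log2 −2.56 and −1.69, and Jun at 28.6 against 80.6 CPM) of 15 after TAM, and 0 higher and 1 lower (Jun, −2.23) of 14 in aTreg cells. Its medians were 0.58, 0.02 and −0.03, against 0.03, 0.06 and −0.06 over all tested genes. Jun is an immediate early gene and was 228 CPM in WT against 10.2 to 80.6 CPM in the other total Treg libraries.

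Satb1 (ENSMUSG00000023927, chromosome 17, 51736187–51833290), a chromatin organiser needed early in Treg development, was the most even of the genes. It was 179 CPM in WT, 226 in mosaic Brg1-sufficient, 248 in mosaic Brg1-deleted, 234 in untreated rKO1, 204 in GFP+ and 189 in GFP− cells. Neither the mosaic (log2 −0.14) nor the TAM difference (−0.11) was larger than the 0.34 between the WT and mosaic Brg1-sufficient libraries, and in aTreg cells (84.1 against 88.4 CPM) the interval spanned zero. Among 12 other chromatin organisers, 0 of 11 tested were called in the mosaic females and in aTreg cells, and 1 of 11 after TAM, Ikzf3 (Aiolos), at log2 1.42. Their medians were 0.11, −0.53 and −0.01 in that order.

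Klf2 (ENSMUSG00000055148, chromosome 8, 72319033–72321656), the quiescence factor that keeps the trafficking genes on, was the highest of the 9 per length in 5 of the 6 total Treg libraries. It was 430 CPM in WT, 501 in mosaic Brg1-sufficient, 595 in mosaic Brg1-deleted, 273 in untreated rKO1, 388 in GFP+ and 218 in GFP− cells. After TAM it was 1.78-fold lower in GFP− than in GFP+ cells (log2 −0.83, interval −0.89 to −0.77), short of a call, which it passed with scaling by total reads (−1.18). Against the untreated rKO1 cells the difference was only −0.33.

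S1pr1 (ENSMUSG00000045092, chromosome 3, 115710433–115715072), a known target of KLF2, did not keep step with it. It was 212 CPM in WT, 243 in mosaic Brg1-sufficient, 463 in mosaic Brg1-deleted, 89.4 in untreated rKO1, 157 in GFP+ and 188 in GFP− cells, so that untreated rKO1 cells and not GFP− cells were lowest. After TAM it was at log2 0.26 (interval 0.19 to 0.34), which turned to −0.09 with scaling by total reads, where the median of all tested genes moved from 0.06 to −0.30. In the mosaic females it was 1.91-fold lower in Brg1-sufficient cells (log2 −0.93, interval −0.98 to −0.88), and −1.06 with scaling by total reads, which is past 2-fold. The ratio of Klf2 to S1pr1 in deposited FPKM ran from 1.91 in GFP− cells to 5.05 in untreated rKO1 cells.

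Ccr7 (ENSMUSG00000037944, chromosome 11, 99144196–99155077) was 405 CPM in WT, 455 in mosaic Brg1-sufficient, 680 in mosaic Brg1-deleted, 276 in untreated rKO1, 357 in GFP+ and 70.2 in GFP− cells. The GFP− cells were 5.09-fold lower than the GFP+ cells (log2 −2.35, interval −2.44 to −2.26), and 84 of 10272 genes were lower by at least as much. In deposited FPKM, Ccr7 exceeded S1pr1 by 2.26- to 4.75-fold in the other 5 total Treg libraries, while in GFP− cells the order was turned, with a ratio of 0.574. In aTreg cells Ccr7 was 674 CPM in the library labelled Brg1-deleted and 418 in the other, the largest difference among the 9 genes there (log2 −0.69, interval −0.73 to −0.65).

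Of 18 genes of the FOXO and KLF families and of lymphoid trafficking, 1 of 14 tested was called in the mosaic females (Cxcr5, the follicle-homing receptor, at log2 3.46), 3 of 16 after TAM and 0 of 15 in aTreg cells. After TAM, Klf4 (13.1 CPM in GFP+ and 1.49 in GFP− cells) and Klf7 (47.1 and 15.8 CPM) were lower, and Itgb7, a subunit of the gut-homing integrin, was higher (log2 1.07). In untreated rKO1 cells Klf4 was 2.10 CPM and Klf7 54.9 CPM, so the Klf4 difference rests largely on a high GFP+ level. The medians were 0.15, −0.17 and −0.05. Foxo1, which sits above Klf2, Ccr7 and Il7r, was at log2 0.23, −0.30 and −0.45 in the mosaic, TAM and aTreg comparisons.

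Il7r (ENSMUSG00000003882, chromosome 15, 9505788–9530176) was 49.6 CPM in WT, 114 in mosaic Brg1-sufficient, 22.4 in mosaic Brg1-deleted, 210 in untreated rKO1, 177 in GFP+ and 167 in GFP− cells. All 3 rKO1 libraries were thus above the 3 libraries from WT mice and mosaic females. In mosaic females the Brg1-sufficient cells were 5.08-fold higher (log2 2.34, interval 2.21 to 2.48), whereas after TAM the GFP− and GFP+ cells were at a 1.06-fold difference. Il7r also differed 2.30-fold between WT and mosaic Brg1-sufficient cells. With the mean of the 9 genes, each standardized across the 6 libraries, Il7r had r = −0.62, against 0.97 for Ccr7, 0.96 for Tcf7 and Bach2, 0.95 for Klf2, 0.92 for Igfbp4, 0.86 for Lef1, 0.63 for Satb1 and 0.55 for S1pr1 (n = 6 libraries, the gene itself included in the mean).

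Among 16 partners and signalling genes of the IL-7 receptor, Crlf2, which pairs with the IL-7 receptor α chain in the TSLP receptor, was the only one called, higher in the mosaic females (47.1 against 14.3 CPM, log2 1.72) and after TAM (39.2 against 18.2 CPM, log2 1.11). None of the 16 was called in aTreg cells. The common γ chain gene Il2rg was at log2 −0.06, 0.41 and −0.34, and the list's medians were −0.08, −0.20 and −0.26.

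Igfbp4 (ENSMUSG00000017493, chromosome 11, 99041244–99054392), which encodes a secreted binding protein of insulin-like growth factors and is a transcript of naive T cells, had the widest spread. It was 286 CPM in WT, 312 in mosaic Brg1-sufficient, 1003 in mosaic Brg1-deleted, 336 in untreated rKO1, 403 in GFP+ and 15.4 in GFP− cells. The GFP− cells had 258 reads against 7355 in GFP+ cells, a 26.1-fold lower level (log2 −4.71, interval −4.89 to −4.53), and 12 of 10272 genes were lower by at least as much. In mosaic females it was 3.21-fold lower in Brg1-sufficient cells (log2 −1.68, interval −1.72 to −1.64). In aTreg cells it was 144 and 103 CPM, at log2 −0.47.

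The sequences upstream of Igfbp4 and Satb1, the genes with the widest and the narrowest spread, are shown to set them side by side. They are the RefSeq promoter windows of GRCm38.p6 that lie before the gene start, 250 bases each, Igfbp4 on the + strand at chr11:99040994-99041243 and Satb1 on the − strand at chr17:51833291-51833540. Capitals mark matches on either strand to CCNCNCCC, the letters of a KLF site, where touching or overlapping matches form 1 run.
Igfbp4 promoter: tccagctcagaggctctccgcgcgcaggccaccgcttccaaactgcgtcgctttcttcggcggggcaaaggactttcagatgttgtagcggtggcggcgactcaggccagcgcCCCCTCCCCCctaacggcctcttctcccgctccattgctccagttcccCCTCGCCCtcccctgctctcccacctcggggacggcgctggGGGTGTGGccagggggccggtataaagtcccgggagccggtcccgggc
Satb1 promoter: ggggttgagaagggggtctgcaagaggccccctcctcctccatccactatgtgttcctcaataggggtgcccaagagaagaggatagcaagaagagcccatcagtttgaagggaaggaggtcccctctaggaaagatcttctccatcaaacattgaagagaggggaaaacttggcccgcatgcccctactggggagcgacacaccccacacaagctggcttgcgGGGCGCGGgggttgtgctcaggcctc
Igfbp4 held 4 matches and Satb1 1. Of all 32851 mouse windows of this length, 45.9% held a match. The letters TATAAA stood 28 bases before the Igfbp4 start and in 12.4% of all windows. The Igfbp4 window had 22 CpG and 69.2% G and C, and that of Satb1 5 CpG and 58% G and C. A match to such letters is a description and not a binding site.

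Of 14 other genes of the IGF axis, 6 were tested after TAM and 4 were called lower in GFP− cells: Igfbp7 (log2 −3.69), the receptors Igf2r (−1.81) and Igf1r (−1.51), and the adaptor Irs2 (−1.15), where 5.64% of all tested genes were. In GFP+, untreated rKO1 and GFP− cells, Igfbp7 was 17.2, 2.78 and 1.32 CPM and Irs2 33.5, 18.4 and 15.1 CPM. The differences of these genes thus rest largely on a high GFP+ level. Igf2r (55.5, 51.6 and 15.8 CPM) and Igf1r (13.0, 12.7 and 4.54 CPM) were low in GFP− cells alone among these libraries. In the mosaic females 1 of 5 was called, Igfbp7, higher in Brg1-sufficient cells (log2 2.27). In aTreg cells Igf1r, Igf2r and Irs2 were called lower (−1.74, −1.11 and −1.05) of 6 tested, where 2.03% of all genes were. The medians were −1.33 after TAM, 0.48 in mosaic females and −0.99 in aTreg cells, against 0.06, 0.03 and −0.06 over all tested genes. Igf2, Irs1 and Igfbp5 had at most 1 read in any library.

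Whether Treg cells with and without BRG1 differ in this program was asked in the mosaic females. There both kinds share a healthy host but were sorted by opposite YFP gates. Of the 9 genes, Igfbp4 was called lower and Il7r higher in the Brg1-sufficient cells, and 7 were not called. Of all 10033 tested genes, 6.08% were called, 4.02% higher and 2.06% lower. The other 7 genes lay at log2 −0.14 to −0.93, all lower in Brg1-sufficient cells. The median of the 9 was −0.25 and that of all tested genes 0.03. Bach2 (−0.43), Ccr7 (−0.58), S1pr1, Igfbp4 and Il7r, 5 of the 9, differed by more than they did both between WT and mosaic Brg1-sufficient cells and between GFP+ and untreated rKO1 cells, pairs that are alike in BRG1, although each pair shares a library with a comparison. How many of all tested genes did so was not counted. GFP+ and untreated rKO1 cells also differed in Xist reads (934 against 10). Among called genes, 66.1% were higher in Brg1-sufficient cells, and 49.0% with scaling by total reads.

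In the inflamed rKO1 mice after TAM, 4 genes were called lower in the GFP− Brg1-reexpressed cells (Igfbp4, Bach2, Tcf7 and Ccr7) and 0 higher, where 12.7% of 10272 genes were called, 7.06% higher and 5.64% lower. Klf2 (log2 −0.83), Lef1 (−0.44), Satb1 (−0.11), Il7r (−0.09) and S1pr1 (0.26) were not called. The median of the 9 was −0.83 against 0.06 over all genes. The same 4 genes and Klf2 exceeded the differences within both pairs of like libraries, which was not counted over all tested genes. Of all called genes 55.6% were higher, but 22.8% with scaling by total reads. Markers of other cells differed in the same pair of libraries. The summed level of the 8 non-Treg T cell genes was 87.5 CPM in GFP+ and 33.2 in GFP− cells, and 3 of the 4 tested were called lower: Tcrg-C1 (26.3 and 0.956 CPM), Tcrg-C2 (7.499 and 0.120 CPM) and Cd40lg, a gene of conventional CD4 T cells (38.7 and 16.4 CPM). Cd8b1 was at 8.81 and 11.2 CPM. The 8 myeloid genes summed to 108 and 49.1 CPM, with 3 of 5 tested called lower (Lyz2, Cd68 and Adgre1), and the 6 plasma cell genes to 418 and 1385 CPM, mostly Ighm (258 and 1241 CPM). In the mosaic females the non-Treg T cell sum was the higher in Brg1-sufficient cells (101 against 55.6 CPM), which the Foxp3 reporter did not select. Of 5 tested genes of this list, 3 were called higher and 0 lower, with Cd40lg at 45.3 against 19.4 CPM. Foxp3 was higher too, at 617 against 282 CPM. The part of non-Treg cells in the results was not tested, and in bulk RNA fewer cells of a type and less RNA per cell cannot be told apart.

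**Figure D2:**
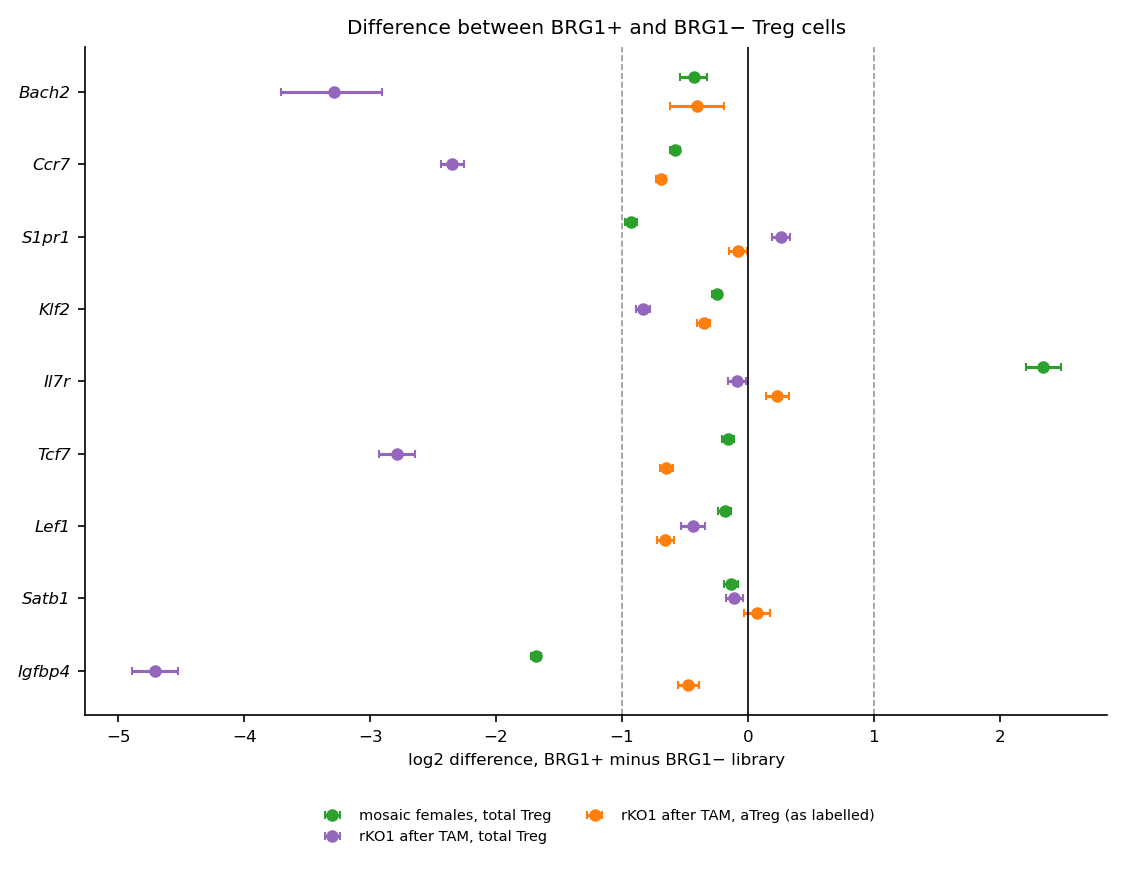
Log2 difference of each gene between Brg1-sufficient or Brg1-reexpressed and Brg1-deleted cells in mosaic females (green), rKO1 mice after TAM (purple) and aTreg cells by their labels (orange). Bars are 95% counting intervals and dashed lines mark 2-fold. After TAM, 4 genes lie beyond 2-fold to the left, Igfbp4 farthest at −4.71, and in mosaic females Igfbp4 and Il7r lie beyond it on opposite sides.

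In aTreg cells none of the 9 was called, where 6.43% of 10030 genes were called, 4.40% higher and 2.03% lower in the library labelled Brg1-reexpressed. Ccr7 (log2 −0.69), Lef1 and Tcf7 (both −0.65), Igfbp4 (−0.47), Bach2 (−0.40), Klf2 (−0.35) and S1pr1 (−0.08) were lower and Il7r (0.23) and Satb1 (0.07) higher. The median was −0.40 against −0.06. The erythroid reads and the order of Smarca4 given above go with the same library. Xist differed as well, with 217 reads (12.3 CPM) in the library labelled Brg1-deleted and 834 (42.4 CPM) in the other. Whether the libraries differ in the sex of the animals was not tested.

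**Figure D3:**
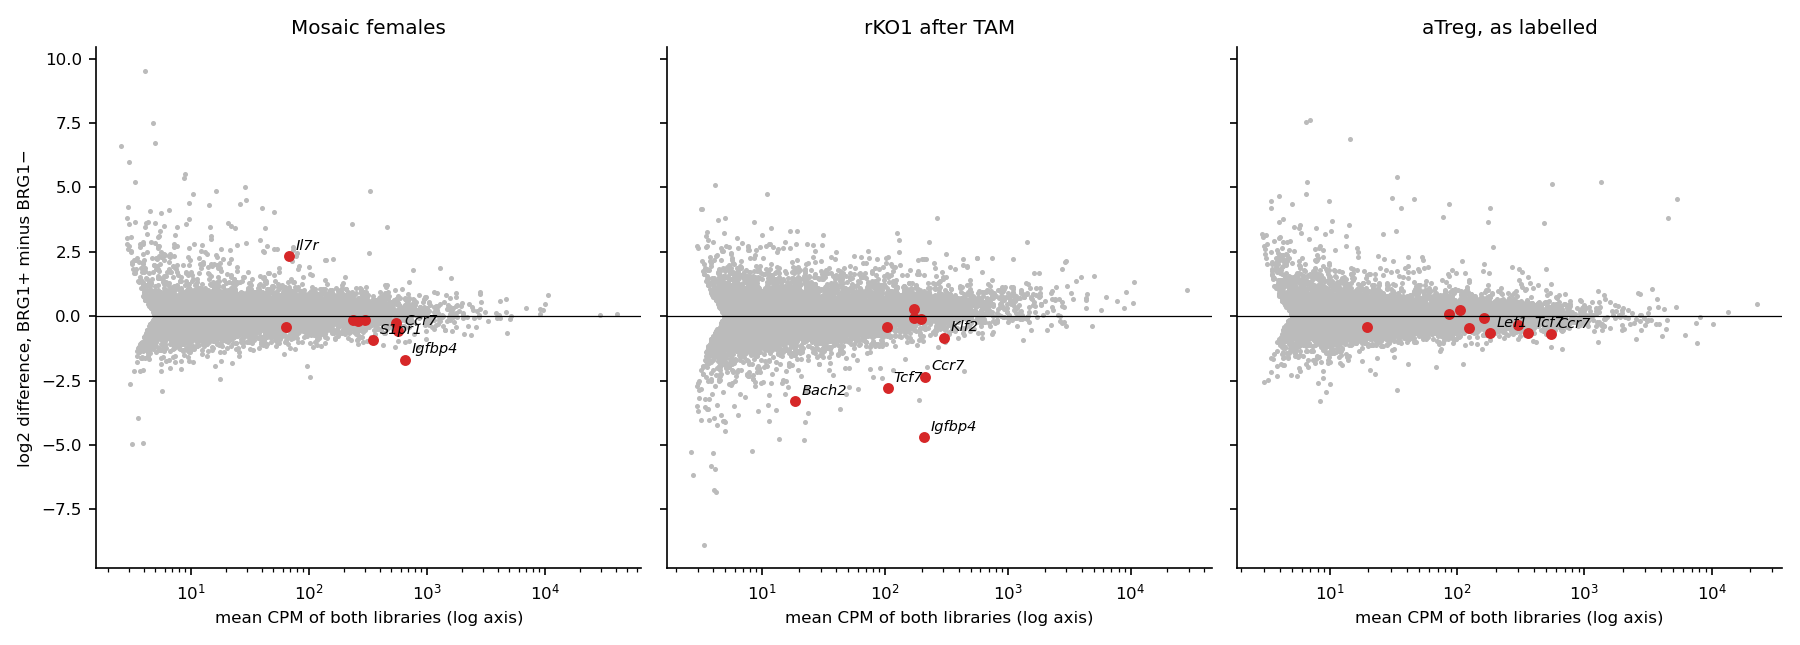
All tested genes (grey) and the 9 genes (red) in the 3 comparisons, with the mean CPM of both libraries on a log axis and the log2 difference on the vertical axis. Names are given beyond 0.5 on either side. After TAM, Bach2, Tcf7, Ccr7 and Igfbp4 lie under the body of genes of like level, while in aTreg cells all 9 lie within it.

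Other genes of the naive or resting state were looked at as a list of 21. After TAM, 12 of 19 tested were called lower in GFP− cells and 1 (Cd55) higher, with a median of −1.73, where 5.64% and 7.06% of all tested genes were and their median was 0.06. Furthest down were Tdrp (16.1 CPM in GFP+ and 0.418 in GFP− cells, log2 −5.22), Nsg2 and Treml2 (both −4.09), Atp1b1 (−4.07) and the survival gene Bcl2 (343 and 36.1 CPM, log2 −3.25). Ets1 was not called (log2 0.16). In the mosaic females 3 of 20 were called lower (Tdrp −1.26, Id3 −1.21 and Bcl2 −1.14) and 2 higher (Dapl1 2.16 and Ly6c1 1.94), with a median of −0.42, where 2.06% and 4.02% of all genes were and their median was 0.03. In aTreg cells 2 of 18 were called lower, Ly6c1 (−1.09) and Als2cl (−1.07), and 0 higher, with a median of −0.48, where 2.03% and 4.40% of all genes were and their median was −0.06.

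**Figure D4:**
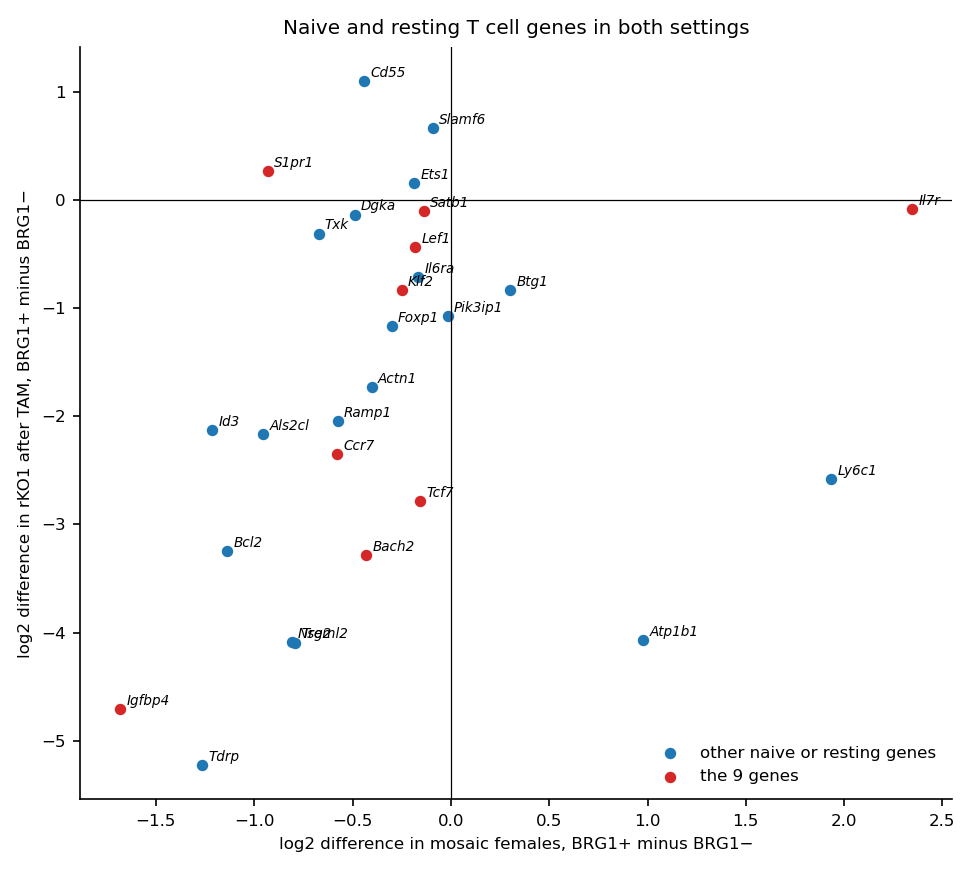
Log2 difference in mosaic females (horizontal) against rKO1 mice after TAM (vertical) for the 9 genes (red) and other naive or resting T cell genes (blue) tested in both. Most genes lie in the lower left. Il7r, Ly6c1, Atp1b1 and Btg1 lie to the right, and S1pr1, Ets1, Cd55 and Slamf6 lie above zero after TAM.

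Genes of activated Treg cells went the other way. Of 19, 13 of 18 tested were called higher in Brg1-sufficient cells of mosaic females (median 2.63, also with Gzma, which had no reads in the deleted cells, at its bound), 14 of 19 after TAM (1.87) and 9 of 19 in aTreg cells (0.85), and 0 were called lower in any of these. The study itself showed several of these activation genes, and Bach2 and Ccr7 of the 9, from the same libraries, so that their directions are not independent evidence. Called higher in all 3 were Tigit, Klrg1, Gzmb, Gzma, Ccr2, Lgals1 and Lgals3. Klrg1, a marker of terminally differentiated Treg cells, was 49.6 against 2.39 CPM in mosaic females, 219 against 39.3 after TAM and 273 against 85.0 CPM in aTreg cells.

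The rKO1 cells were also held against cells of WT mice and mosaic females. Untreated rKO1 cells differ from WT and mosaic Brg1-sufficient cells in BRG1 as well as in the host, and their library had 10 Xist reads against 875 and 2899, so that host, BRG1 and sex cannot be told apart in these comparisons. Untreated rKO1 cells had 4 of the 9 genes called lower and 0 higher than mosaic Brg1-sufficient cells (Lef1 −1.46, S1pr1 −1.44, Bach2 −1.10 and Tcf7 −1.07), where 9.12% of all genes were called lower and 8.13% higher, and against WT 1 lower (S1pr1 −1.24) and 1 higher (Il7r 2.08), where it was 7.08% and 8.53%. Against mosaic Brg1-deleted cells, which also lack BRG1, 7 were lower and 1 (Il7r, 9.36-fold) higher, where it was 6.97% and 8.12%. The mosaic Brg1-deleted library had 3990 Xist reads, so host and sex cannot be told apart there either. With scaling by total reads, Bach2 (−0.75) and Tcf7 (−0.72) were no longer called against mosaic Brg1-sufficient cells and Il7r (1.23) was, S1pr1 (−0.95) was not called against WT and Klf2 (−0.90) was not called against mosaic Brg1-deleted cells. Igfbp4 did not follow in 2 of the comparisons: it was at log2 0.23 against WT and 0.11 against mosaic Brg1-sufficient cells. Against mosaic Brg1-deleted cells it was called lower, at −1.58. The share of called genes that were higher was 47.1%, 54.6% and 53.8% in these 3 comparisons, and 78.1%, 78.0% and 72.7% with scaling by total reads.

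Brg1-reexpressed GFP− cells of rKO1 mice had 6 genes called lower than mosaic Brg1-sufficient cells and 0 higher, where 11.0% of all genes were called lower and 10.8% higher. They were Igfbp4 (20.2-fold), Bach2 (15.7-fold), Tcf7 (10.6-fold), Ccr7 (6.49-fold), Lef1 (2.75-fold) and Klf2 (2.30-fold). Against WT, 4 were lower (Igfbp4, Bach2, Tcf7 and Ccr7) and Il7r was higher (3.36-fold), where it was 7.41% and 9.69%, and 56.7% of called genes were higher, or 45.7% with scaling by total reads. With scaling by total reads, Klf2 (−1.12) and Lef1 (−1.08) were called lower than WT as well. S1pr1 and Satb1 were within 1.29-fold of both controls. These comparisons share libraries and are not independent of each other.

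**Figure D5:**
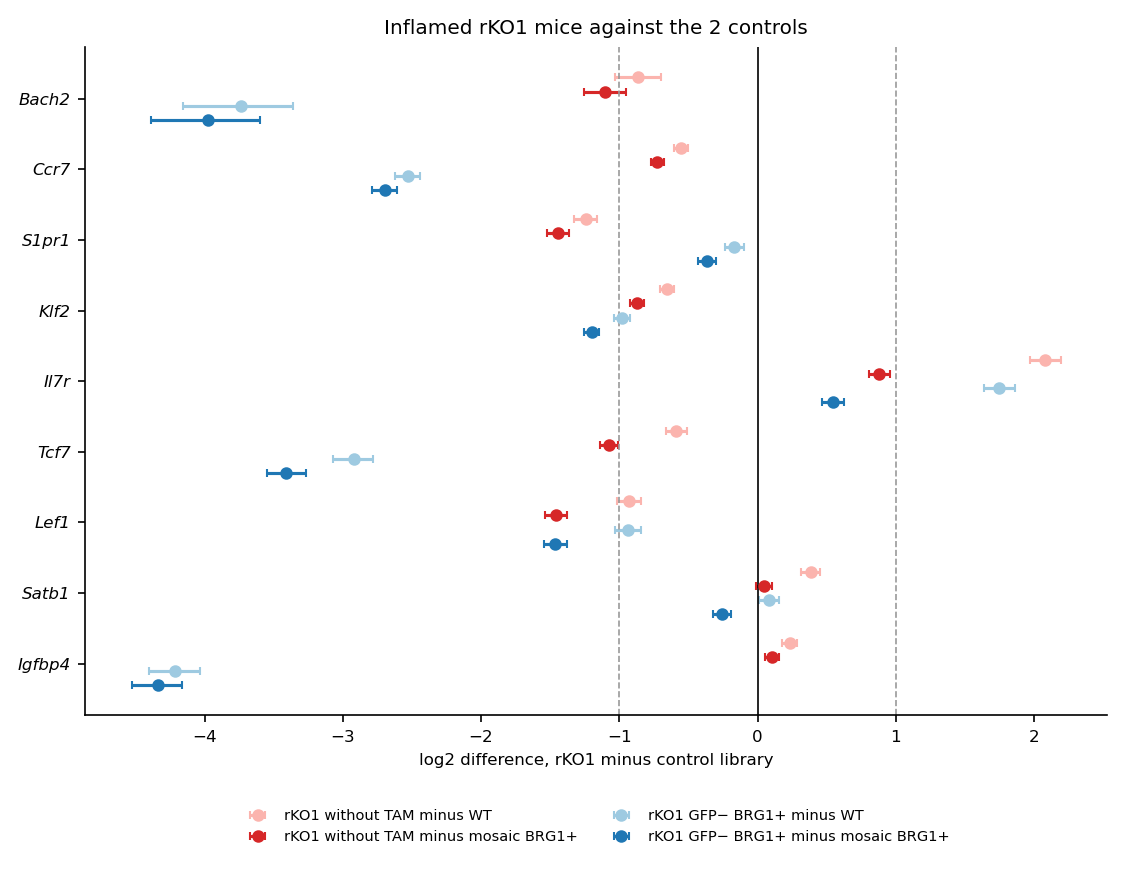
Log2 difference of each gene between rKO1 cells and the WT or mosaic Brg1-sufficient (mosaic BRG1+) cells, for untreated rKO1 cells (red shades) and GFP− Brg1-reexpressed cells (blue shades), with 95% counting intervals and dashed lines at 2-fold. Igfbp4 is near zero in untreated rKO1 cells, at 0.23 and 0.11, and below −4 in the GFP− cells.

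Between the like libraries, GFP+ cells after TAM had 0 of the 9 genes called against untreated rKO1 cells, where 4.32% of all genes were called, 2.08% higher and 2.24% lower. These libraries are alike in BRG1 but differed in Xist (934 against 10 reads) and Junb (1758 against 553 CPM). TAM and sex cannot be told apart between them. All but Il7r (log2 −0.25) and Satb1 (−0.20) were higher, S1pr1 most (0.81), with a median of 0.41. Of all called genes 48.1% were higher, or 34.6% with scaling by total reads. Mosaic Brg1-sufficient against WT cells had 1 gene called, Il7r (log2 1.20, higher), where 9.22% were called, 5.08% higher and 4.14% lower. Mosaic Brg1-deleted against WT cells had Igfbp4 (1.81) and S1pr1 (1.13) called higher and Il7r (−1.14) lower, where 6.65% and 6.98% were called.

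The genes whose pattern over the 6 total Treg libraries was most like the mean of the 9, of 7462 with at least 20 CPM in a library, were Ttc28, Nub1, Zbtb20, Kat2a, Pik3r5, Kansl1, Celsr1, Rere, Pou2f2 and Myc, with r from 0.983 to 0.994 (n = 6 libraries). Ttc28 was 28.97 CPM in mosaic Brg1-deleted and 2.57 in GFP− cells. In aTreg cells, which the ranking did not use, all 10 were lower in the library labelled Brg1-reexpressed, as were 55.0% of all tested genes, and 0 reached 2-fold. Without the GFP− library, 0 of these 10 remained among the 10 most alike, so the ranking rests on that library.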

How the data were processed

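The authors deposited FPKM values, fragments per gene scaled by exon length and a library total, for 8 libraries made with SMART-Seq v4 and paired-end Illumina sequencing. The submitters' processing notes name HISAT2 2.0, StringTie 1.3.3b, featureCounts 1.5.0-p3 and mm10. The values were multiplied by merged exon length (GENCODE M21, GRCm38) and library total. This gave whole reads, within 0.02, for 93.5% of 25995 genes with reads in total Treg libraries, with 1084 more by an estimated length, and for 100% of 21219 genes in aTreg libraries. Foxp3, Itgb7, Tle4 and Lgals1 did not come out whole in the total Treg libraries, and their reads there are approximate. All 9 genes were recovered as whole reads in all 8 libraries. The planned design had to use fold alone, as 1 library per condition allows no test, and no p-value is given.

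Reads were scaled by an own TMM over each experiment (Python 3.11.15, NumPy 2.4.6, SciPy 1.17.1, pandas 2.3.3, figures with matplotlib 3.10.9). Log2 differences used a prior of 0.25 reads, and 11 comparisons were made. The calling rule was checked on simulated data, which cannot show how it holds under variation between animals, as 1 library per condition leaves that unmeasured. Fold intervals are exact binomial (Clopper-Pearson) and level intervals exact Poisson. Correlations are Pearson's r of log2 levels, with no p. Conditions were taken from sample titles. Beside the 9 genes, the text names the 10 most alike genes, up to 5 genes per list with the largest called difference after TAM, genes called alike in the 3 BRG1 comparisons, Smarca4 and defining markers. Other genes in small counts were named after their values were seen. The 9 genes and all lists were chosen with earlier results of these data known. Results for some genes are not reported here.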

Additional observations from a re-analysis of the deposited data

Results flagged for a closer look

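S1pr1 differed in direction between the settings in which cells with and without BRG1 were compared: log2 −0.93 in mosaic females, 0.26 in rKO1 mice after TAM and −0.077 in aTreg cells by their labels. The value after TAM turned to −0.086 with scaling by total reads, which would put S1pr1 lower in all 3 settings. With that scaling the median of all tested genes was −0.30. With untreated rKO1 cells in place of GFP+ cells, a setting chosen after seeing the data, S1pr1 was higher in GFP− cells (log2 1.08). Il7r differed in direction too, at log2 2.34 in mosaic females, −0.086 in rKO1 mice after TAM and 0.23 in aTreg cells. The values of GFP− against GFP+ cells were smaller than differences between libraries alike in BRG1. These were 0.81 for S1pr1 (GFP+ against untreated rKO1) and 1.20 for Il7r (mosaic Brg1-sufficient against WT). In aTreg cells S1pr1 lay near the median of all tested genes (−0.06). A reversal of direction was therefore neither shown nor excluded by these values. Each value compares 2 libraries, and the difference between settings was not tested.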

How the results depend on the processing

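No paired analysis was possible because each condition had 1 library, and for the same reason no replicate could be left out. No difference of the 9 genes past 2-fold changed direction under any setting run. With the deposited FPKM as they stand, the number of the 9 called went from 4 to 3 in untreated rKO1 against mosaic Brg1-sufficient cells. It went from 5 to 6 in GFP− against WT cells, also with TMM over the 2 libraries compared. Scaling by total reads turned 3 small differences: S1pr1 after TAM (−0.09), Satb1 in untreated rKO1 against mosaic Brg1-deleted cells (0.13) and Satb1 in GFP− against WT cells (−0.06). It changed the number of the 9 genes called from 2 to 3 in mosaic females, 4 to 5 after TAM, 2 to 1 in untreated rKO1 against WT, 4 to 3 against mosaic Brg1-sufficient (2 lower and 1 higher) and 8 to 7 against mosaic Brg1-deleted cells, and 5 to 7 in GFP− against WT cells. Genes called over all tested went from 610 to 608, 1304 to 1625 and 1629 to 2108 in the first 3 of these comparisons. In the next 3 they went from 1797 to 2079, 1566 to 1717 and 1759 to 1713. Scaling by total reads left the number of the 9 unchanged in the other 5 comparisons, and moved the median of all genes after TAM from 0.06 to −0.30.

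Counts over all genes follow the threshold. In the order mosaic, TAM, aTreg, untreated rKO1 against WT, mosaic Brg1-sufficient and mosaic Brg1-deleted, GFP+ against untreated rKO1, GFP− against mosaic Brg1-sufficient and WT, and mosaic Brg1-sufficient and Brg1-deleted against WT, the genes called were 610, 1304, 645, 1629, 1797, 1566, 443, 2238, 1759, 931 and 1385. With no filter on low values they were 7872, 8745, 7497, 9575, 9798, 9625, 7368, 10136, 9213, 8257 and 9512, with 20 CPM in either library 263, 577, 198, 763, 905, 750, 132, 1268, 862, 484 and 666, and at 1.5-fold 2011, 3159, 1992, 3801, 3949, 3398, 1567, 4524, 3460, 2887 and 3394. At 1.5-fold, 3 of the 9 genes were called in aTreg cells, 6 in untreated rKO1 against WT cells, 7 against mosaic Brg1-sufficient cells, 1 in GFP+ against untreated rKO1 cells and 7 in mosaic Brg1-deleted against WT cells. In the same order, 1992 of 10030, 3801 of 10437, 3949 of 10419, 1567 of 10261 and 3394 of 10161 tested genes were called. With untreated rKO1 cells in place of GFP+ cells, a setting chosen after seeing the data, 2047 of 10453 genes were called in GFP− cells. Of the 9, 5 were called (S1pr1 the fifth, at log2 1.08), and Lef1 was at −0.005. Without the GFP− library, 0 of the 10 most alike genes remained. The cause of these shifts was not tested.

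With 1 library per condition, depth is not what limits the 9 genes, whose counting intervals are narrow. Variation between animals is unmeasured.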

Other observations

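A value outside the comparisons set the total Treg libraries apart. Junb, an immediate early gene, was 3500 CPM in WT, 394 in mosaic Brg1-sufficient, 217 in mosaic Brg1-deleted, 553 in untreated rKO1, 1758 in GFP+ and 924 in GFP− cells. Its part in the results was not tested.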
